A study of Mus musculus with 7 samples.

Results

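Expression of 9 published targets of the liver microRNA miR-122 that act in metabolism, transport and trafficking was compared between livers of miR-122 knockout and wild-type mice. The genes were Slc7a1, Gys1, Ccng1, Bckdk, Cd320, Slc35a4, Tpd52l2, Entpd4 and Xpo6, and every probe set whose platform annotation named exactly 1 of them was read on its own. This gave 22 of 45037 probe sets and 8 of the 9 genes. Entpd4 was not named alone by any probe set. The animals were 4 mir-122 knockout mice, numbered KO-03, KO-90, KO-91 and also KO-94, and the controls were 3 wild-type mice (WT-27, WT-103 and WT-104), with 1 Affymetrix array per animal. All 7 mice had the B6/129 background and were 2 months old. The labels name neither sex, litter nor the deleted segment, and no probe set named miR-122, so these values hold no check of the deletion.

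MicroRNAs are short RNAs that guide Argonaute proteins to partly complementary sites, mostly in 3′ untranslated regions, and lower the stability and translation of the messenger RNAs that carry them. miR-122 is the dominant microRNA of hepatocytes. Known targets include enzymes and transporters that are low in adult hepatocytes, so the comparison asks which of these messenger RNAs were higher without it. The whole liver was assayed, so a change in the share of cells and a change in RNA per cell cannot be told apart.

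The values were log2 expression values made by robust multi-array analysis, on which a difference of 1 is a change by a factor of 2. Array medians lay between 4.65 and 4.71. On each array the brightest of 27 control probe sets for Bacillus subtilis genes was taken as the floor, which lay between 4.71 and 5.23, and a value at or under it is close to background. The first principal component, which held 46.8% of the variance, placed KO-94, KO-90 and KO-91 at 65.4, 41.6 and 19.6, and WT-27 and WT-103 at -52.6 and -46.9. It placed KO-03 at -13.2 and WT-104 at -13.8, so these 2 arrays lay close to each other across the genotypes. Of 8 listed hepatocyte genes 6 were measured (Alb, Apoa1, Ttr, Hnf4a, Apob and Cps1). Their mean level was 13.36 to 13.54 in knockout and 13.34 to 13.43 in wild type, where the highest value of the series was 14.89. In limma 0 of their 16 probe sets had an adjusted p under 0.05, nor an unadjusted one. Whether the share of hepatocytes differed was not tested.

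Of the measured targets, 5 had higher messenger RNA in knockout liver. In probe sets that passed and exceeded the floor, Slc35a4, Bckdk and Cd320 were higher by factors of 2.02 to 3.56, Ccng1 by 2.27 and Gys1 by 1.62. For Ccng1 only 1 of 3 probe sets passed, and its brightest was higher by a factor of 1.7 without passing. Slc7a1, Tpd52l2 and Xpo6 did not pass the test. Of the 22 probe sets, 7 were higher in knockout, 0 were lower and 15 did not pass at a Benjamini-Hochberg adjusted p under 0.05 in limma, a moderated linear model. At an unadjusted p under 0.05, 14 were higher and 0 lower, against 7.8% of all probe sets higher and 5.51% lower. Among all probe sets 1.29% were higher in knockout and 0.32% were lower by the same rule, and 31.8% of the targets' probe sets were higher. Among the 20495 probe sets whose mean exceeded the mean floor 2.66% were higher. With the brightest probe set of each gene alone and p adjusted over these, 4 of the 8 measured targets were higher (Slc35a4, Bckdk, Cd320 and Gys1), against 2.58% of 18193 genes. The median difference was 0.63 over the 22 probe sets and -0.00 over all probe sets. In 13 of the 22 all knockout arrays lay above all wild-type arrays, against 7.25% of all probe sets, and in 0 of the 22 all knockout arrays lay below, against 5.53%. Of the 22, 13 lay above the floor on all arrays, 2 on some, and 7 exceeded it on none of the 7 arrays. A Gys1 probe set is among these 7, so 6 of the 15 that exceeded the floor on any array were higher. Without KO-03 the count of higher probe sets was 9, without KO-94 8 and without KO-90 5, and without KO-91, WT-27, WT-103 or WT-104 it was 4. The 4 probe sets that passed in each of these fits belonged to Slc35a4, Bckdk and Cd320.

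**Figure D1:**
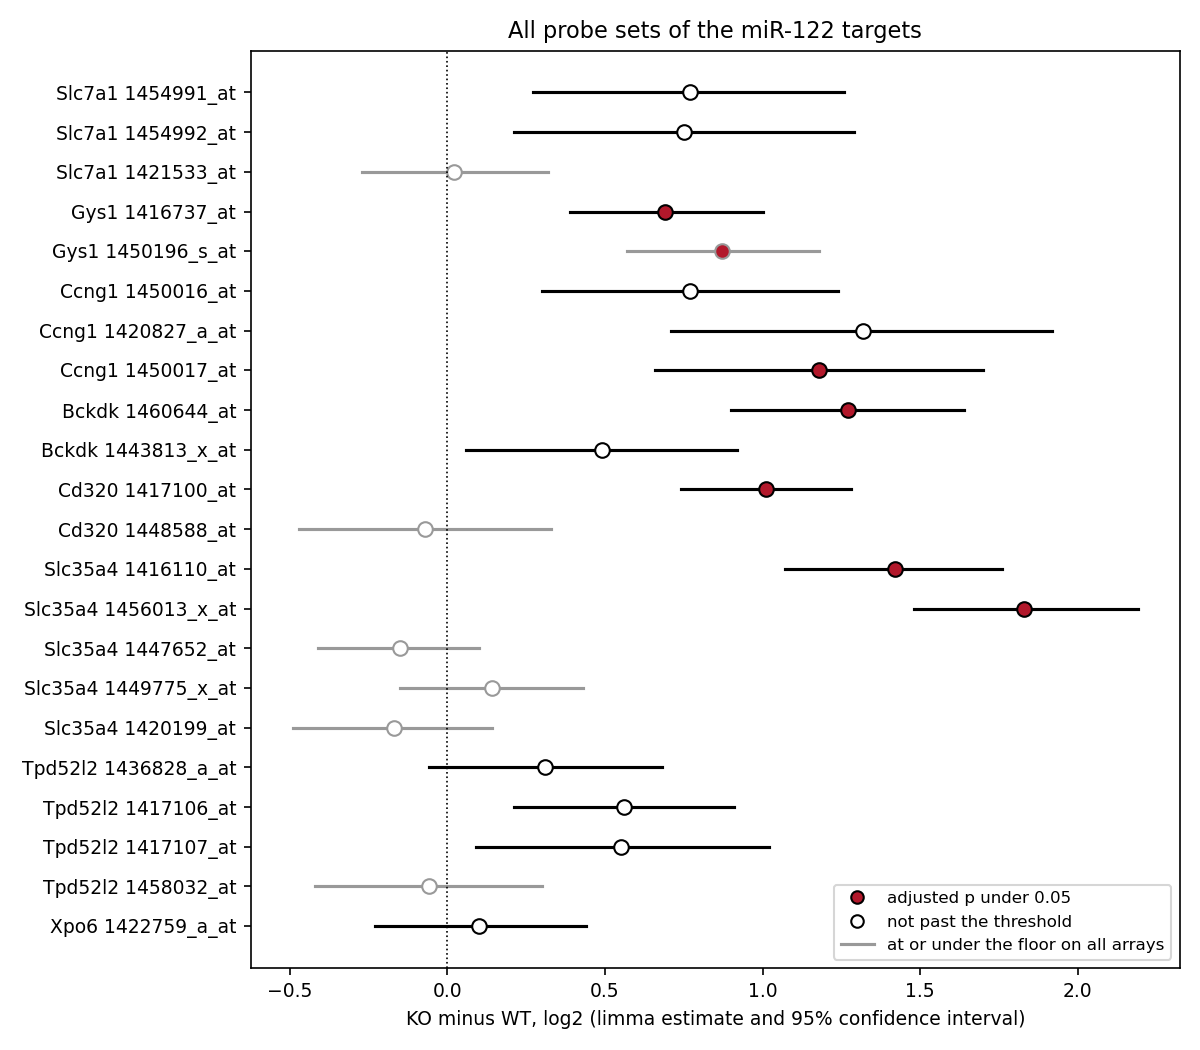
Difference in log2 expression, knockout minus wild type, for the 22 probe sets (rows), as limma's estimate (point) with its 95% confidence interval (line). Filled points passed at an adjusted p under 0.05 and grey lines mark probe sets no higher than the floor on any of the 7 arrays. The 7 filled points lie between 0.69 and 1.83, and estimates on grey lines, all close to background, are not read as sizes.

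The promoters of 4 of the 5 genes that were higher are shown here as a description of their sequence. They come from RefSeq (GRCm38.p6), in which 7 of the 9 genes matched (not Slc35a4 and Entpd4), and run from 250 bases before the annotated start to 50 bases after it, 5′ to 3′ on the gene's strand. Capitals mark the GC box GGGCGG, the CCAAT box CCAAT, the TATA motif TATAAA and the E-box CACGTG on either strand, and no marked motif overlaps another. Bckdk lies at chr7:127903823-127904122 on the + strand, Gys1 at chr7:45434589-45434888 on the + strand, Ccng1 at chr11:40755237-40755536 on the - strand and Cd320 at chr17:33842841-33843140 on the + strand, where it is the first of 2 starts.
Bckdk: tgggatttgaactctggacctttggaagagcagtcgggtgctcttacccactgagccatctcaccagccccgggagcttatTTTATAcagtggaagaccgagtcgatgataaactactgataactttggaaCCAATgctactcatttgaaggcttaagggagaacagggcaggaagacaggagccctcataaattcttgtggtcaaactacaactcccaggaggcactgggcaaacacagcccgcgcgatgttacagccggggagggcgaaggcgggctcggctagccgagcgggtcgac
Gys1: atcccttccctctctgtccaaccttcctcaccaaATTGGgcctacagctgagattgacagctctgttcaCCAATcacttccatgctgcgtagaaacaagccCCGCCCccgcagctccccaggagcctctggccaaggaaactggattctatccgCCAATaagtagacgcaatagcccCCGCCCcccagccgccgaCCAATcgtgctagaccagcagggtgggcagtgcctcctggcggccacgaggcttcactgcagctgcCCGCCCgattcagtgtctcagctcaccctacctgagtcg
Ccng1: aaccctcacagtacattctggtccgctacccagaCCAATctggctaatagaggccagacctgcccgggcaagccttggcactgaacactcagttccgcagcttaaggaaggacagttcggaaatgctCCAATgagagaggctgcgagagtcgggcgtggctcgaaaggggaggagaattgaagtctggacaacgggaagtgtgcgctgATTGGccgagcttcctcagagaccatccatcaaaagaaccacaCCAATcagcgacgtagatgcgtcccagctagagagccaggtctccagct
Cd320: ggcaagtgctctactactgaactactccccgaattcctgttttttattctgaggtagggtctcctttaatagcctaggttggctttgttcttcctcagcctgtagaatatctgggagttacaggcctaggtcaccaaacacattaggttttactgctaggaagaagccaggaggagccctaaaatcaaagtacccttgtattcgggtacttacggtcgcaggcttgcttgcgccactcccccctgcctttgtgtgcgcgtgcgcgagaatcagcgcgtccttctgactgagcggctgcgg
The Gys1 window held 3 GC boxes and 4 CCAAT boxes, the Ccng1 window 4 CCAAT boxes, the Bckdk window 1 CCAAT box and 1 TATA motif, and the Cd320 window none of the 4 motifs. Of 32851 promoter windows of this length, 35.7% held a GC box, 37.4% a CCAAT box, 13.6% a TATA motif and 7.15% an E-box, and 1.06% held 4 or more CCAAT boxes. GC content was 60.3% for Gys1, 55.7% for Ccng1, 54.0% for Bckdk and 51.7% for Cd320, against a median of 52.7% over all windows. The cut of 4 was given for the CCAAT box alone and equals the count in Gys1 and Ccng1, so this share is no test. Motifs of Slc7a1, Tpd52l2 and Xpo6, which did not pass, are not given. A link between motifs and direction was therefore not tested. These matches describe the windows and no measurement here bears on what binds them.

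Slc35a4, a member of the nucleotide sugar transporter family, which moves activated sugars into the Golgi and endoplasmic reticulum, had the largest differences among the targets. Its probe set 1456013_x_at read 7.40, 7.57, 7.70 and 7.97 in knockout, in the order in which the animals are named above and which is kept throughout, against 5.91, 5.62 and 5.96 in wild type. All 4 knockout arrays lay at least 1.44 above the highest wild-type array. The mean was 7.66 ± 0.24 (SD, n = 4) in knockout and 5.83 ± 0.18 (SD, n = 3) in wild type, a difference of 1.83 ± 0.16 (SE) with a limma adjusted p of 0.00155. The brightest probe set, 1416110_at, read 7.83, 8.31, 8.10 and 8.38 in knockout and 6.57, 6.80 and 6.84 in wild type, without overlap. Its difference was 1.42 ± 0.15 (SE), with a limma adjusted p of 0.00362. Both kept their call in the 7 fits that left out 1 array, with limma adjusted p up to 0.0258. The other 3 probe sets of Slc35a4 exceeded the floor on no array and did not pass. Among 35 probe sets of the 15 other nucleotide sugar transporters, 0 rose, 0 fell and 35 did not pass in limma (at an unadjusted p under 0.05, 5 were higher and 0 lower), and their median difference was 0.08. The smallest p among them belonged to Slc35b4, whose 3 probe sets differed by 0.51, 0.66 and 0.56, with limma adjusted p of 0.141, 0.0722 and 0.222.

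Cd320 encodes the cell surface receptor that takes up vitamin B12 bound to transcobalamin. Its probe set 1417100_at read 7.84, 8.02, 7.86 and 7.95 in knockout and 6.88, 6.74 and 7.11 in wild type. The knockout values lay within 0.18 of each other and all above wild type. The mean was 7.92 ± 0.08 (SD, n = 4) in knockout and 6.91 ± 0.18 (SD, n = 3) in wild type, a difference of 1.01 ± 0.12 (SE) with a limma adjusted p of 0.0057. The call was kept whichever array was left out, with limma adjusted p up to 0.0373. The second probe set, 1448588_at, exceeded the floor on no array, between 3.0 and 3.69 in knockout and between 3.24 and 3.67 in wild type, and its groups overlapped. Of the 31 probe sets of 14 other genes of cobalamin uptake and use, 0 rose, 0 fell and 31 did not pass in limma (at an unadjusted p under 0.05, 4 were higher and 2 lower), with a median of -0.04. Tcn2, the transcobalamin whose complex Cd320 binds, differed by 0.27 ± 0.11 (SE) in its brightest probe set and between -0.07 and 0.30 over 5 probe sets. Mmaa, which helps deliver the cofactor to methylmalonyl-CoA mutase, had the smallest p of the list and differed by -0.40 ± 0.11 (SE), with a limma adjusted p of 0.153.

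Slc7a1, the cationic amino acid transporter CAT-1 that carries arginine and lysine, did not pass in any of 3 probe sets. Its brightest probe set, 1454991_at, read 5.46, 6.14, 6.27 and 6.38 in knockout and 5.45, 5.35 and 5.07 in wild type. KO-03 lay at the level of WT-27, the other 3 knockout arrays lay above, and WT-104 lay under the floor. The mean was 6.06 ± 0.41 (SD, n = 4) in knockout and 5.29 ± 0.20 (SD, n = 3) in wild type, a difference of 0.77 ± 0.22 (SE) with a limma adjusted p of 0.153. Without KO-03 the difference was 0.97 and passed, with a limma adjusted p of 0.0112. Probe set 1454992_at read 4.71, 4.79, 5.0 and 5.72 in knockout and 4.16, 4.20 and 4.56 in wild type. All 3 wild-type arrays and KO-03 and KO-90 lay at or under the floor. With wild type raised to the floor the difference was 0.15 on the log2 scale. This is no bound, since KO-03 and KO-90 are themselves close to background. The probe set did not pass (limma adjusted p = 0.204). The third probe set, 1421533_at, exceeded the floor on no array and did not pass. Of 13 probe sets of the 6 other transporters of cationic amino acids and their partner subunit, 0 rose, 0 fell and 13 did not pass in limma (at an unadjusted p under 0.05, 3 were higher and 0 lower), with a median of 0.22. Slc7a2, which encodes the cationic transporter CAT-2 of liver, differed by 0.29 ± 0.25 (SE) in its brightest probe set and between -0.01 and 0.41 over 4.

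**Figure D2:**
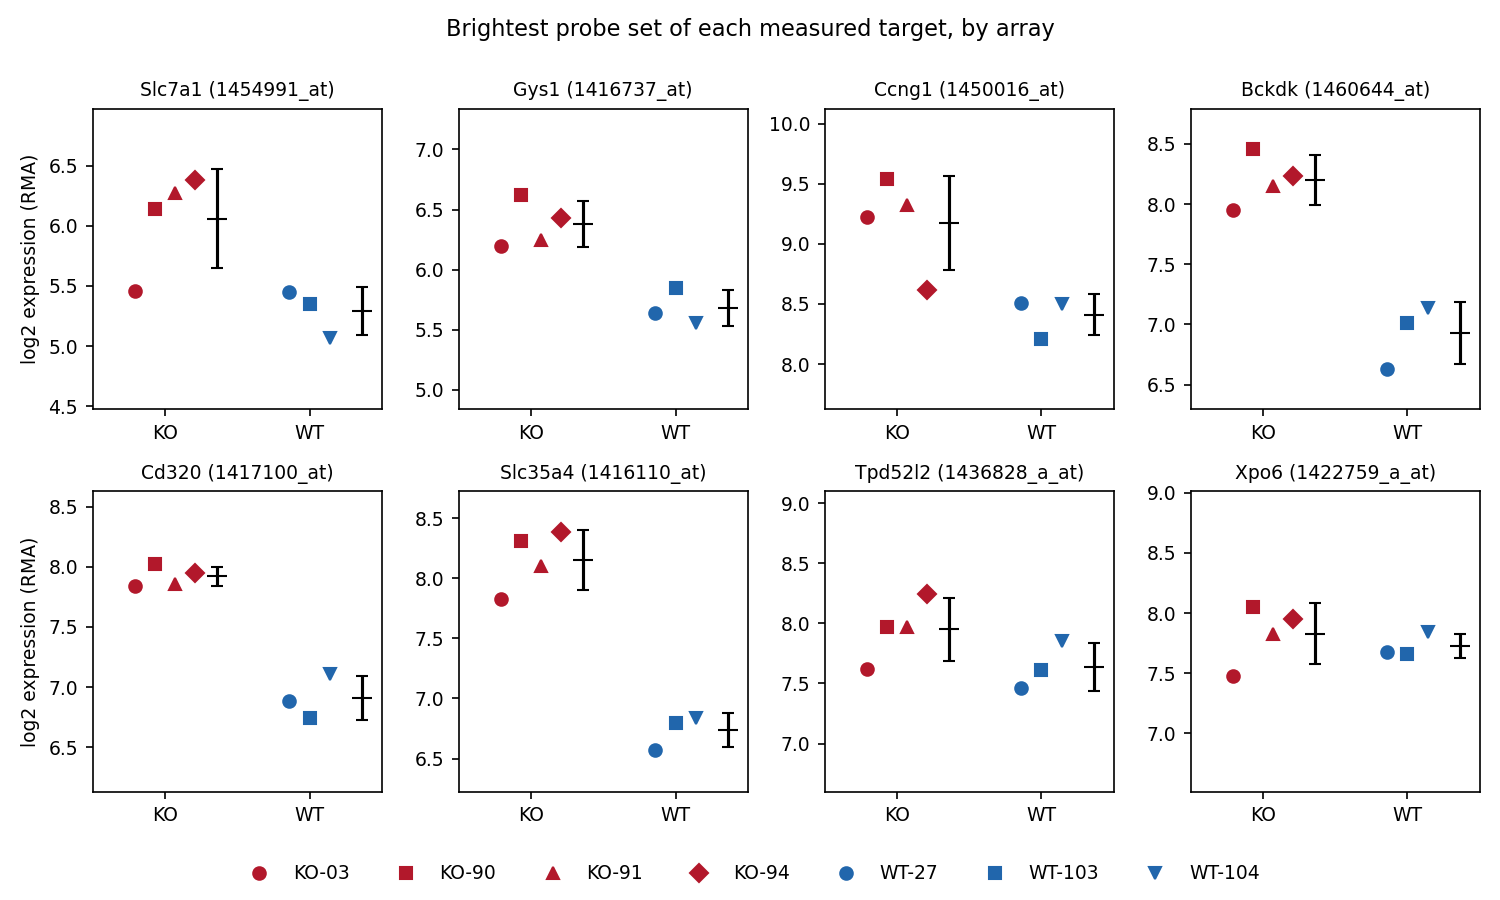
Log2 expression of the brightest probe set of each of the 8 measured targets, 1 point per array, knockout left and wild type right, with the mean and SD of each genotype as black bars. Each panel spans the same range of 2.5 log2 units. The genotypes stand apart for Slc35a4, Bckdk, Cd320 and Gys1, KO-94 lies near wild type for Ccng1, KO-03 near wild type for Slc7a1, and the genotypes overlap for Tpd52l2 and Xpo6.

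Bckdk encodes the kinase that phosphorylates and inactivates the branched-chain ketoacid dehydrogenase, the committed step in the breakdown of leucine, isoleucine and valine. Its probe set 1460644_at read 7.95, 8.46, 8.15 and 8.23 in knockout and 6.63, 7.01 and 7.14 in wild type. The lowest knockout array lay 0.80 above the highest wild-type array. The mean was 8.20 ± 0.21 (SD, n = 4) in knockout and 6.93 ± 0.26 (SD, n = 3) in wild type, a difference of 1.27 ± 0.16 (SE) with a limma adjusted p of 0.00872. It passed whichever array was left out, with limma adjusted p up to 0.0448. The dimmer probe set 1443813_x_at read 5.57, 5.69, 6.15 and 5.81 in knockout and 4.94, 5.43 and 5.57 in wild type. Its lowest knockout array met the highest wild-type array, and its difference of 0.49 ± 0.19 (SE) did not pass (limma adjusted p = 0.299).

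Around this kinase, 45 probe sets of 23 other genes of branched-chain amino acid breakdown were measured. Of these, 1 rose, 2 fell and 42 did not pass in limma, and their median difference was -0.20. At an unadjusted p under 0.05, 2 were higher and 10 lower, against 7.8% and 5.51% of all probe sets. Bcat2, the mitochondrial aminotransferase of the first step, read 7.40, 8.17, 7.84 and 8.0 in knockout and 6.87, 6.06 and 5.99 in wild type. It rose by 1.55 ± 0.25 (SE), with a limma adjusted p of 0.0218. Hibch, a hydrolase of the valine branch, fell by 0.69 on the log2 scale in probe set 1451512_s_at, with a limma adjusted p of 0.0449. The leucine-branch hydratase Auh passed in 1 of 6 probe sets, 1458436_at, which fell by at least 0.32 (limma adjusted p = 0.0387), and its brightest probe set differed by 0.08. Bcat2 passed in 2 of the 7 fits that left out 1 array, and Hibch and Auh in 1 each. Ppm1k, the phosphatase that opposes Bckdk, differed by -0.33 ± 0.21 (SE) and -0.58 ± 0.33 (SE) and did not pass (limma adjusted p = 0.558 and 0.515).

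Gys1 encodes the glycogen synthase of muscle and most other tissues, while Gys2 encodes that of hepatocytes. The Gys1 probe set 1416737_at read 6.20, 6.62, 6.25 and 6.43 in knockout and 5.64, 5.85 and 5.56 in wild type, without overlap. The mean was 6.38 ± 0.19 (SD, n = 4) in knockout and 5.68 ± 0.15 (SD, n = 3) in wild type, a difference of 0.69 ± 0.14 (SE) with a limma adjusted p of 0.0449. It lost its call without any array other than KO-03, with limma adjusted p up to 0.157. The second probe set, 1450196_s_at, read 4.67, 5.12, 4.79 and 5.01 in knockout and 3.98, 4.12 and 3.96 in wild type. It passed, with a limma adjusted p of 0.0181, but all 7 values lay at or under the floor, so the size of its difference is not given. It lost its call without KO-91, WT-27, WT-103 or WT-104, with limma adjusted p up to 0.0783. The only Gys2 probe set read 9.74, 8.59, 8.96 and 8.35 in knockout and 9.84, 9.56 and 9.49 in wild type. KO-03 lay within the wild-type range and the other 3 knockout arrays below it, and the difference of -0.72 ± 0.29 (SE) did not pass (limma adjusted p = 0.334). Of 35 probe sets of 20 other genes of glycogen synthesis and breakdown, 0 rose, 1 fell and 34 did not pass in limma. Their median difference was 0.06. At an unadjusted p under 0.05, 4 were higher and 8 lower, against 7.8% and 5.51% of all probe sets. The branching enzyme Gbe1 read 7.78, 7.84, 7.62 and 7.27 in knockout and 8.82, 9.06 and 8.45 in wild type. Its knockout arrays all lay below wild type, and it fell by 1.15 on the log2 scale (limma adjusted p = 0.0216), a call kept in 4 of the 7 fits that left out 1 array.

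Because Gys1 is the isoform of muscle and most other tissues, markers of skeletal muscle were read beside it. Of 6 muscle genes Acta1, Myh1, Myh4, Mylpf and Tnnt3 exceeded the floor on no array in their brightest probe set, and Ckm exceeded it on some. The list's mean level was 4.02 to 4.21 in knockout and 4.06 to 4.09 in wild type. None of the 10 probe sets passed in limma, also at an unadjusted p under 0.05. Which cells carry the Gys1 difference was not tested.

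Ccng1 encodes cyclin G1, a target of the p53 tumour suppressor that binds protein phosphatase 2A. Its probe set 1420827_a_at read 9.81, 9.41, 9.57 and 8.53 in knockout and 8.05, 7.98 and 8.01 in wild type, a difference of 1.32 ± 0.27 (SE). All knockout arrays lay above wild type, with KO-94 lowest, and the limma adjusted p was 0.0518. Probe set 1450017_at read 9.09, 9.15, 9.12 and 8.25 in knockout and 7.78, 7.47 and 7.91 in wild type. It was the only Ccng1 probe set past the threshold, with a difference of 1.18 ± 0.23 (SE) and a limma adjusted p of 0.0449, and it lost its call without any array other than KO-94, with limma adjusted p up to 0.202. Probe set 1450016_at read 9.22, 9.54, 9.32 and 8.62 in knockout and 8.51, 8.21 and 8.50 in wild type, and its difference of 0.77 ± 0.21 (SE) did not pass (limma adjusted p = 0.131). KO-94 was the lowest knockout array in all 3 probe sets. Without KO-94 the differences were 1.58, 1.40 and 0.95 and all 3 passed, with limma adjusted p of 0.00321, 0.00564 and 0.024. Of 29 probe sets of 13 other genes of the cyclin G and p53 response, 0 rose, 0 fell and 29 did not pass in limma (at an unadjusted p under 0.05, 4 were higher and 1 lower), with a median of 0.06. The RNA-binding p53 target Zmat3 had the smallest p, at 0.61 ± 0.14 (SE) with a limma adjusted p of 0.0732. The paralogue Ccng2 differed by -0.39 ± 0.28 (SE) and -0.22 ± 0.30 (SE).

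Tpd52l2, a coiled-coil protein of the tumour protein D52 family linked to vesicle traffic, did not pass in any of 4 probe sets. Its brightest, 1436828_a_at, read 7.62, 7.97, 7.97 and 8.24 in knockout and 7.46, 7.61 and 7.85 in wild type, and the groups overlapped through KO-03. The difference was 0.31 ± 0.16 (SE), with a limma adjusted p of 0.475. Probe set 1417106_at read 7.09, 7.43, 7.48 and 7.75 in knockout and 6.95, 6.78 and 6.91 in wild type, and 1417107_at read 6.25, 6.79, 6.98 and 7.10 in knockout and 6.26, 6.01 and 6.41 in wild type. They differed by 0.56 ± 0.15 and 0.55 ± 0.20 (SE), with limma adjusted p of 0.143 and 0.281, and without KO-03 both passed, at 0.67 and 0.73 with limma adjusted p of 0.0354 and 0.0413. The fourth, 1458032_at, exceeded the floor on no array and did not pass. Its paralogue Tpd52 passed in 1 of 4 probe sets, 1419493_a_at, which read 8.45, 8.54, 8.52 and 9.22 in knockout and 7.51, 7.66 and 7.77 in wild type. All knockout arrays lay above wild type, and the difference was 1.04 ± 0.19 (SE) with a limma adjusted p of 0.0365, a call kept in 2 of the 7 fits that left out 1 array. The brightest Tpd52 probe set, 1419494_a_at, differed by 0.81 ± 0.19 (SE) and did not pass (limma adjusted p = 0.0838). The other measured paralogue, Tpd52l1, ran the other way in its only probe set, at -0.55, and did not pass. Of the 5 probe sets of both paralogues, 1 rose, 0 fell and 4 did not pass in limma (at an unadjusted p under 0.05, 3 were higher and 1 lower), with a median of 0.59.

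Xpo6, the exportin that carries actin bound to profilin out of the nucleus, had 1 probe set. It read 7.48, 8.05, 7.83 and 7.95 in knockout and 7.68, 7.66 and 7.84 in wild type. KO-03 lay below and KO-90 and KO-94 above all wild-type arrays, and the difference was 0.10 ± 0.15 (SE), with a 95% confidence interval of -0.23 to 0.44 and a limma adjusted p of 0.819. Of 58 probe sets of 19 other nuclear transport receptors and cargo factors, 0 rose, 0 fell and 58 did not pass in limma (at an unadjusted p under 0.05, 2 were higher and 4 lower), with a median of 0.02. The importin Ipo5 had the smallest p, at 0.45 ± 0.10 (SE) with a limma adjusted p of 0.073, and Xpo7 differed by -0.22 ± 0.15 (SE).

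Entpd4, a nucleoside diphosphatase of Golgi and lysosome membranes, shares its probe sets with other gene symbols, so no value is given to Entpd4 itself. Of 4 probe sets that name it with a second symbol, 3 are shared with Entpd4b and 1 with Gm16867. The brightest of those shared with Entpd4b, 1438177_x_at, read 8.25, 8.16, 8.18 and 8.64 in knockout and 8.79, 8.76 and 8.94 in wild type. All knockout arrays lay below wild type, a direction opposite to that of the targets that passed, and the difference of -0.53 ± 0.14 (SE) did not pass (limma adjusted p = 0.131). The other 2 shared with Entpd4b differed by -0.47 and -1.04 (limma adjusted p = 0.242 and 0.186). In the last, KO-90 and KO-91 lay at or under the floor, and with both raised to it the difference was -0.67. The probe set shared with Gm16867 exceeded the floor on no array. Of 21 probe sets of 8 other genes of the family, 0 rose, 0 fell and 21 did not pass in limma (at an unadjusted p under 0.05, 4 were higher and 1 lower), with a median of 0.03. Entpd7 had the smallest p, in a probe set that did not pass (limma adjusted p = 0.0514). With wild type raised to the floor this probe set differed by 0.22, which is no bound because KO-90 also lay under the floor. The brightest probe set of Entpd5 differed by -0.07.

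**Figure D3:**
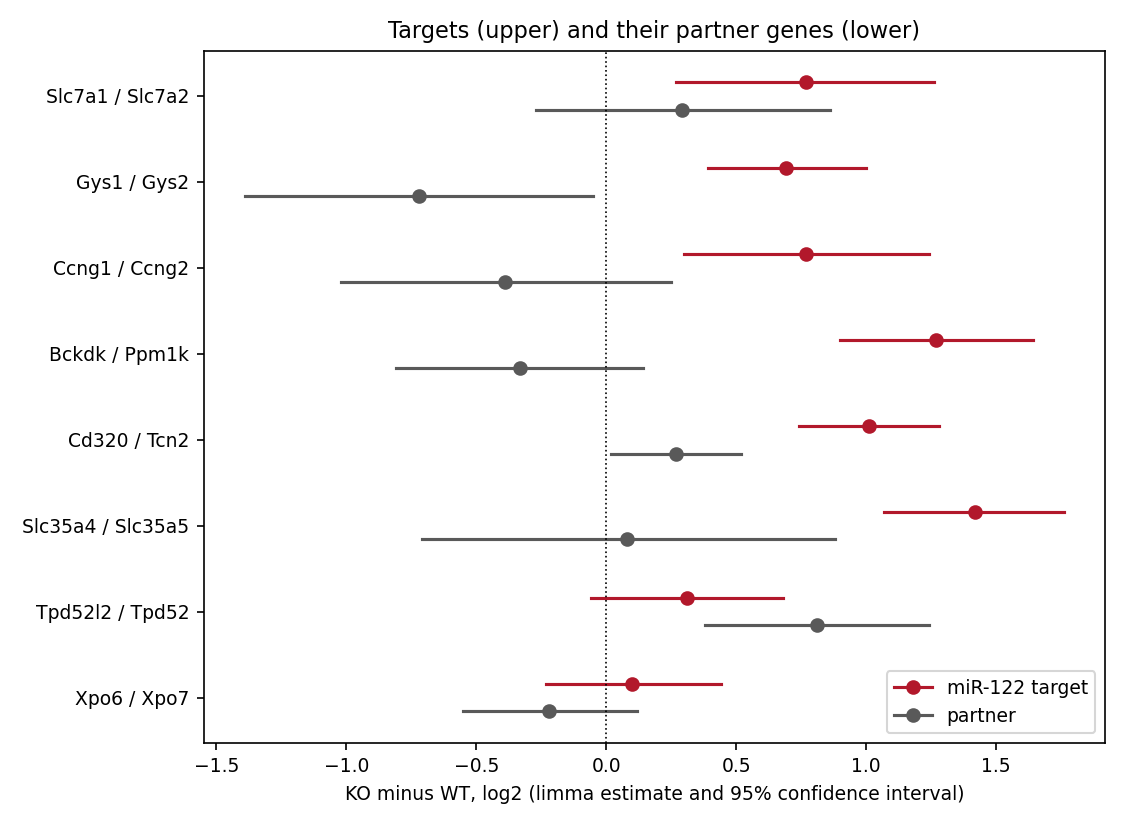
Difference in log2 expression, knockout minus wild type, for the brightest probe set of each measured target (red, upper of each pair) and of its partner (grey, lower), as limma's estimate with its 95% confidence interval. Partners are a paralogue, the opposing phosphatase of Bckdk (Ppm1k) or the ligand carrier of Cd320 (Tcn2). Bckdk at 1.27 and Ppm1k at -0.33 lie farthest apart, and Tpd52l2 at 0.31 lies below its paralogue Tpd52 at 0.81.

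Whether a target differed more than its partner was tested on the difference of their log2 values within each array, in 8 pairs, with a two-sided exact permutation test that used all 35 splits of 7 arrays into 4 and 3. Bckdk differed by 1.60 more than Ppm1k and Cd320 by 0.74 more than Tcn2, each without overlap between genotypes (exact permutation p = 0.0286, the smallest that 35 splits allow, and 0.0762 adjusted over the 8 pairs). Gys1 differed by 1.41 more than Gys2 and Ccng1 by 1.16 more than Ccng2, also without overlap (exact permutation p = 0.0571, adjusted p = 0.0914). For Tpd52l2 and Tpd52 the difference was -0.50 (exact permutation p = 0.0286, adjusted p = 0.0762). For Slc35a4 and Slc35a5 it was 1.34 with overlapping genotypes, since KO-03 lay within the wild-type range (exact permutation p = 0.0857, adjusted p = 0.114). Slc7a1 with Slc7a2 and Xpo6 with Xpo7 differed by 0.47 and 0.32 (exact permutation p = 0.457 and 0.257). None of the 8 pairs passed after adjustment. With an exact p of 0.0286 as the smallest possible, a single pair could not pass over 8 pairs, whatever its size. A pair could pass only if several others also reached this smallest p. Not passing therefore does not show that targets and partners differed alike.

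**Figure D4:**
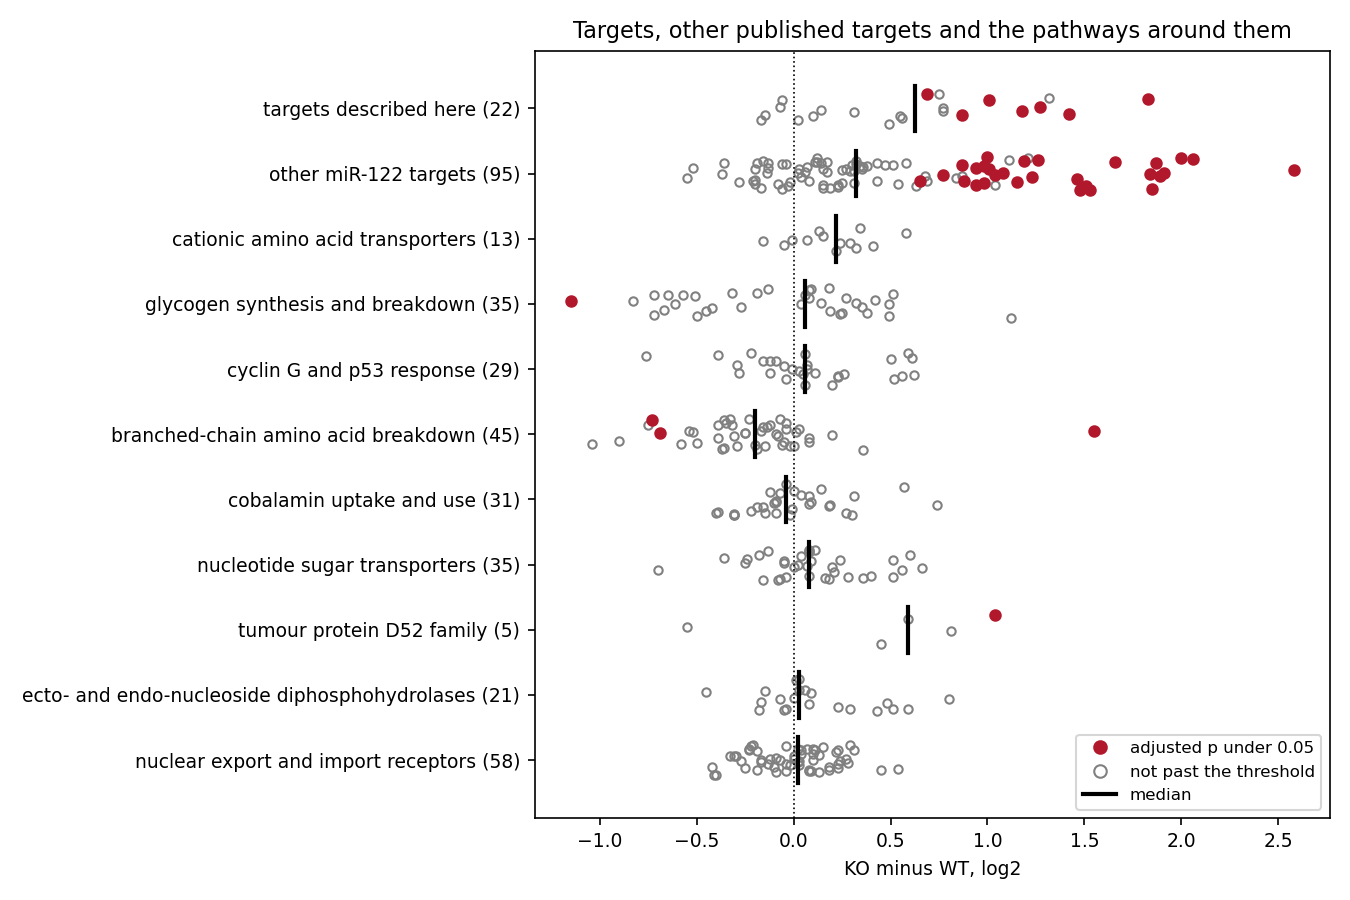
Difference in log2 expression, knockout minus wild type, for each probe set of the targets described here, of other published miR-122 targets and of the pathways around each target (number of probe sets in brackets). Red points passed at an adjusted p under 0.05 and black bars are medians. Red points are many among the targets (7 of 22) and the other published targets (29 of 95) and few in the pathway lists.

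Over the 9 pathway and family lists together, without the targets, 269 probe sets of 119 genes were measured, of which 2 rose and 3 fell, 0.743% higher against 1.29% of all probe sets, and their median difference was 0.00. Of 95 probe sets of 29 other published miR-122 targets, 29 rose (30.5%), 0 fell and 66 did not pass in limma, with a median of 0.32, and at an unadjusted p under 0.05 43 were higher and 2 lower. Those past the threshold belonged to 14 genes, and the 4 genes with the smallest p were the peroxidase Gpx7 at 2.58 ± 0.12 (SE), aldolase A, Aldoa, at 2.00 ± 0.14 (SE), Ndrg3 at 1.91 ± 0.13 (SE) and the collagen prolyl hydroxylase P4ha1 at 1.66 ± 0.16 (SE). Both target lists were drawn up from the literature with earlier results of these arrays known, so their counts are no independent evidence of a direction.

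KO-03 was the lowest knockout array in the brightest probe set of 7 of the 8 measured targets and the highest in 0, and KO-94 was the lowest for Ccng1. Over the brightest probe sets of all 18193 genes KO-03 was the lowest knockout array in 39.4%. Over the 22 probe sets of the targets it was the lowest in 14 and the highest in 2, and over all probe sets it was the lowest in 34.4%. The range over the 4 knockout arrays was 0.18 for Cd320, 0.42 for Gys1, 0.51 for Bckdk, 0.55 for Slc35a4, 0.57 for Xpo6, 0.62 for Tpd52l2, 0.91 for Ccng1 and 0.92 for Slc7a1. Among 15937 named probe sets that exceeded the floor on every array, those most like each target's brightest probe set by Pearson correlation over the 7 arrays were Ipo5, Plgrkt and Ralb for Slc35a4, Ralb, Ptdss2 and Slc16a10 for Bckdk, and Vamp3, Rdh9 and Bloc1s6 for Cd320. For Gys1 they were Rap1gap, Vcp and Lgals3bp, for Ccng1 Rrp7a, Bmpr1a and Tef, for Slc7a1 Ednrb, Vasn and Vps51, for Tpd52l2 Tbc1d19, Myl12a and Rab31, and for Xpo6 Mif4gd, Ubap2l and Itgb1bp1. These correlations lay between 0.975 and 0.997 and describe 7 arrays that share 2 genotypes, among which high values arise in many probe sets.

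Some markers of other cell types were higher in knockout beside these targets. At an adjusted p under 0.05 in limma 1.29% of all probe sets were higher. Of 15 probe sets of bile duct markers 6 rose, in 4 of 6 measured genes (Cd24a, Epcam, Krt19 and Tspan8), and the list's mean level was 5.56 to 6.66 in knockout and 4.47 to 4.71 in wild type, with Krt7 above the floor on no array. Of 22 probe sets of stellate cell markers 4 rose, in 4 of 10 genes (Col1a1, Dcn, Pdgfra and Pdgfrb), with mean levels of 7.92 to 8.41 in knockout and 7.31 to 7.46 in wild type. Of 11 macrophage probe sets 1 rose, that of Cd14, in 8 measured genes, with mean levels of 8.54 to 9.21 in knockout and 7.97 to 8.47 in wild type. Of 4 neutrophil probe sets 2 rose, those of S100a8 and S100a9, with mean levels of 6.31 to 7.56 in knockout and 4.80 to 5.31 in wild type and Cxcr2 at or under the floor. None of 10 endothelial and 10 lymphocyte probe sets passed in limma, with mean levels of 7.46 to 7.72 and 4.77 to 4.98 in knockout and of 7.55 to 7.62 and 4.70 to 4.89 in wild type. At an unadjusted p under 0.05, 12 bile duct probe sets were higher and 0 lower, and 11 stellate ones were higher and 1 lower. Of macrophage probe sets 5 were higher and 0 lower, and of neutrophil ones 2 were higher and 0 lower. By this rule 1 endothelial probe set was higher, 2 were lower, and 0 lymphocyte ones passed, against 7.8% of all probe sets higher and 5.51% lower. The marker counts were smaller in some fits that left out 1 array. Of bile duct probe sets 2 rose without WT-103, 3 without KO-91 and 3 without WT-27, and of stellate ones 1 rose without WT-103, 2 without KO-91 and 2 without WT-27. The Cd14 call was lost without KO-90, KO-91 or any wild-type array, and of the neutrophil calls 1 was kept without KO-90, 1 without KO-91 and 0 without any one wild-type array. The part of these cells in the targets' differences was not tested.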

How the data were processed

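Biotin-labelled liver RNA was hybridised to Affymetrix arrays, per the labels' protocols. The table deposited by the authors holds log2 values from RMA, run in Partek per the design text of the series. No software version is given in the sources used. No depth applies to arrays, and their number limits the precision. P-values measure the spread between these 7 animals.

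Genotype and animal number came from the sample titles. The 64 control probe sets were left out. Platform annotation gave 1 symbol for 34945 of 45037 probe sets, several for 932 and none for 9160. Limma 3.58.1 in R 4.3.3 (lmFit, eBayes, two-sided, no covariates) was fitted to all 45037, with Benjamini-Hochberg adjustment and a threshold of 0.05. Where no array of the dimmer genotype exceeded the floor, these arrays were raised to it. The difference then counts as a bound ("at least") only if every array of the brighter genotype exceeded the floor. The floor takes the highest bacterial control of each array, and the sources do not say if transcripts for these controls were added. The brightest probe set has the highest mean over the 7 arrays, knockout included, so this choice can favour probe sets that are higher in knockout. List levels are means of the brightest probe sets.

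The targets, gene lists, partners and floor were chosen with earlier results of these data known. Genes were named by a rule: the targets, their partners, up to 4 called genes per list or else the one with the smallest p, called markers, and the 3 genes most alike in pattern. The fit was also run on simulated data with independent noise in every value, so that run does not cover variation that the probe sets of an array share. Python 3.11.15, pandas 2.3.3 and matplotlib 3.10.9 were also used.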

Additional observations from a re-analysis of the deposited data

Results flagged for a closer look

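Among the 4 knockout arrays, 1 array stood apart by Dixon's criterion in 3 of 59 probe sets of the targets and their partners, about the number chance gives, since chance alone gives about 1 in 20. For Ccng1 1450017_at, KO-94 read 8.25 and the others 9.09 to 9.15. For Tpd52 1419493_a_at, KO-94 read 9.22 and the others 8.45 to 8.54. For Entpd5 1458677_at, KO-03 read 4.0 and the others 3.39 to 3.46, all at or under the floor.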

How the results depend on the processing

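The median difference of the targets, 0.63, kept its direction and moved by less than the spread between knockout arrays in each alternative fit, and lay between 0.51 and 0.74 when 1 array was left out. The Slc35a4, Bckdk and Cd320 calls held in each alternative fit that contained their probe set. The count of higher target probe sets, 7, was 11 with array weights, 4 with the brightest probe set per gene, 4 at an adjusted p under 0.01 and 4 to 9 with 1 array left out. The count of target genes, 5, was 7 with array weights, 4 with the brightest probe set per gene and 4 at a fold of at least 2. It was 3 at an adjusted p under 0.01 and 3 to 6 with 1 array left out. The number of all probe sets higher in knockout, 582, was 1177 with array weights, 163 at an adjusted p under 0.01, 363 at a fold of at least 2 and 172 to 1112 with 1 array left out. The number lower, 144, was 407, 21, 68 and 38 to 268 under these settings and 242 with a group mean of at least 6. In the pathway lists, the 2 higher calls became 11 with array weights, 6 with a group mean of at least 6, 4 with the brightest probe set per gene, 0 at an adjusted p under 0.01 and 0 to 7 with 1 array left out. The 3 lower calls became 8 with array weights, 5 with a group mean of at least 6, 0 at an adjusted p under 0.01, 1 at a fold of at least 2 and 0 to 7 with 1 array left out. Filters and a single probe set per gene test fewer features; the cause of the other shifts, among them the higher counts without KO-03, was not tested. With array weights the brightest Slc7a1 probe set passed (limma adjusted p = 0.0498), as did Tpd52l2 1417106_at and Ccng1 1450016_at and 1420827_a_at. Gys1 1416737_at lost its call with a trended prior. With 1 array left out the pair test cannot reach an adjusted p under 0.05, so only its sizes were recomputed. In the other settings run 0 of 8 pairs passed, where again a single pair could not pass alone. No paired analysis was possible because the animal numbers do not recur between genotypes.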
